A study of Mus musculus with 15 samples.

Results

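The 9 genes described here encode transcription factors on which the development and identity of group 2 innate lymphoid cells (ILC2s) depend: Gata3, Rora, Tcf7, Id2, Bcl11b, Ets1, Gfi1, Zbtb16 and Tox. They were named as a list, and each was read from the array feature annotated with its symbol alone. Where a gene had several such features, the brightest on average was taken. For 8 of the 9 genes such a feature was found, and all 8 were among the 16257 genes tested, each with a level above the limit for dim features on 15 of 15 arrays. Tcf7, which encodes TCF-1, had no feature under its symbol alone in the annotation used and is not analysed here.

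The levels come from 15 Affymetrix arrays, 1 per biological replicate, of total RNA from ILC2s of mouse lung, in 5 groups of 3. Naive adults, 8 weeks old, gave a female and a male group. Effector adults, also a female and a male group, had been given the epithelial cytokine IL-33, which activates ILC2s, through the nose on 3 consecutive days, and their cells were taken 1 day after the last dose. Neonates were naive and 10 days old, and the sample labels give no sex for them. The labels give no mouse strain, no age for the effector adults, no gate for the sort and no number of mice per replicate, and no group is labelled as dosed without IL-33. Dosing, or a batch that follows the groups, therefore cannot be told apart from IL-33 in what follows. The p-values measure the spread between these replicates, and the number of arrays limits their precision.

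ILC2s arise from lymphoid progenitors without rearranging an antigen receptor, and a small set of transcription factors sets them apart from T, B and natural killer (NK) cells. ID2 has no DNA-binding region of its own and captures E proteins, which otherwise drive the T and B cell programmes. PLZF, encoded by Zbtb16, marks innate lymphoid precursors, and TOX, TCF-1 and ETS1 act early in the lineage. GATA3, RORα, BCL11B and GFI1 then establish the ILC2 fate and hold it in mature cells, where GATA3 also acts on the genes of the type 2 cytokines. In the lung these cells are tissue-resident and answer IL-33 from the epithelium with IL-5 and IL-13.

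Sequence before the start of transcription was taken for these genes from RefSeq (mouse build GRCm38.p6), where windows of 250 bases were given for 6 of the 9 genes: Gata3, Rora, Tcf7, Id2, Bcl11b and Gfi1. Those of Gfi1, one of the genes whose level differed between conditions, and of Id2, whose protein captures the E proteins, are shown in full because they lie before the first start of the gene. Both run 5′ to 3′ on the minus strand, at chr5:107725806-107726055 for Gfi1 and chr12:25096093-25096342 for Id2, and the capitals mark an E box (CANNTG), the element that E proteins recognise.
Gfi1: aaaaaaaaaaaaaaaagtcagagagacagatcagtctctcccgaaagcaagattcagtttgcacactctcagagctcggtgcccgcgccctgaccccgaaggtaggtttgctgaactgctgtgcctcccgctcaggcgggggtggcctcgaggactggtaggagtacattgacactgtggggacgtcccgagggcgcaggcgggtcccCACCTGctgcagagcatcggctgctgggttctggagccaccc
Id2: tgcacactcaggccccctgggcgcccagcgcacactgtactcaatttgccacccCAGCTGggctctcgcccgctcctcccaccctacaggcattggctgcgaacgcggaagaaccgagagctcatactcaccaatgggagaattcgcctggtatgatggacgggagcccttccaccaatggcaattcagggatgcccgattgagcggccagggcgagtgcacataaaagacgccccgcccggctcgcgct
The E box lies 42 bases before the start in the Gfi1 window and 196 bases before it in the Id2 window. Of all 32851 RefSeq windows of this length, 66.2% hold CANNTG, so its presence is common. A second Gfi1 window, inside the gene, holds another E box 156 bases before its start.

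The windows of Bcl11b and Gata3 lie inside the gene, after another annotated start, and only the 30 bases around a match are given, on the minus strand. In Bcl11b, the member with the clearest difference after IL-33, the capitals mark CTTTGA, the core bound by TCF-1 and its relatives, 89 bases before the start (chr12:108003486-108003515). In Gata3 they mark CCGGAA read on the other strand, the ETS core, 203 bases before the start (chr2:9878786-9878815).
Bcl11b: agaggccaagcaCTTTGAagaagtgtgaga
Gata3: ggcggcgcccctTTCCGGtcagtagagggg
CTTTGA occurs in 13.8% and CCGGAA in 12.03% of all windows on either strand. The GATA letters (AGATAA or TGATAA, 16.6% of windows), the ROR site core (AGGTCA, 14.02%) and the GFI1 core (AAATCA, 12.4%) were searched on both strands as well. None of the 6 motifs was in the Rora window, and of these last 3 the only match was AGGTCA, on the other strand of 1 of the 2 Tcf7 windows, 13 bases before its start. A match is a description of letters and not of a bound site.

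Across the 3 conditions the 8 factors did not move as a block. Bcl11b fell and Gfi1 rose after IL-33, Rora was higher in neonates than in either kind of adult cell, and Zbtb16 was higher in neonates than in effector adults. Gata3, Id2, Ets1 and Tox passed the test in none of the 3 comparisons. The test is limma's moderated test over all 16257 genes, and a gene is called at a Benjamini-Hochberg adjusted p under 0.05. All levels are log2 values, on which 1 unit is a doubling of signal, and differences are given with the standard error of the fit to all arrays.

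**Figure D1:**
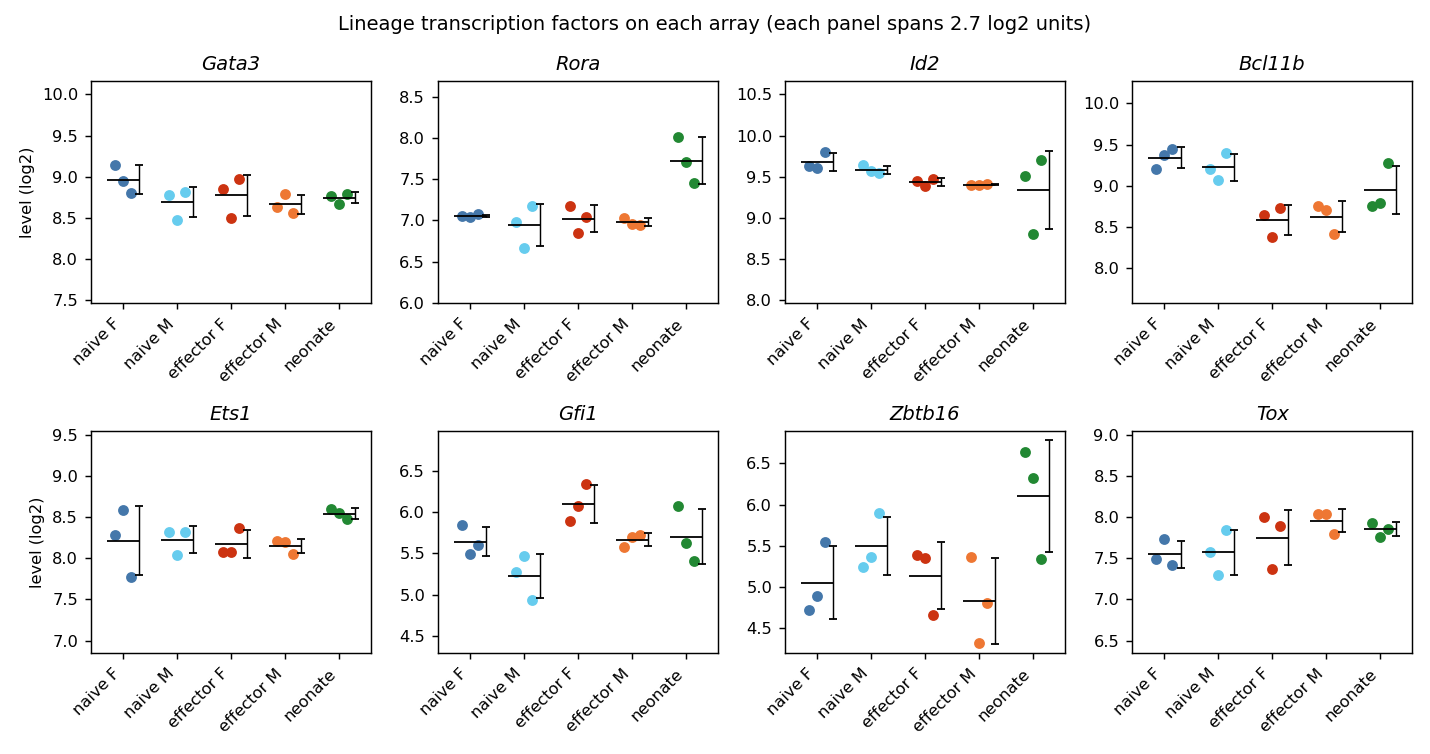
Log2 level (y axis) of each of the 8 measured factors on each of the 15 arrays, by group (x axis; F, female; M, male), with the group mean as a horizontal line and the SD (n = 3) as a bar. Bcl11b is lower on all 6 effector than on all 6 naive arrays, and Rora is highest on the 3 neonatal arrays.

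Between effector and naive adults, 1 of the 8 factors was higher and 1 lower. Over all genes tested 34.6% were called in this comparison, 23.7% as higher and 10.9% as lower, so 2 of 8 is no more than the background. After centring, which sets the median of each array to the same value and moves the median difference of all genes from 0.03 to 0.17, the higher share of these calls was 83.0% in place of 68.5%. The median difference of the 8 factors was -0.08, against 0.03 for all genes tested. Their median absolute difference was 0.25, against 0.30 for all genes. RNA was measured in bulk, so fewer cells that express a gene and less RNA per cell cannot be told apart in any result below.

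Bcl11b, a zinc finger factor that keeps ILC2s from taking on features of other innate lymphoid cells, fell most. In naive females it was measured at 9.20, 9.37 and 9.45, and in naive males at 9.20, 9.07 and 9.40. In effector females it was at 8.64, 8.38 and 8.73, and in effector males at 8.76, 8.71 and 8.41. Each effector array was thus below each naive array, a separation in this direction that 4.93% of all genes showed. The difference was -0.68 ± 0.13 (SE, n = 6 effector and 6 naive arrays), which is 1.60-fold lower (adjusted p = 0.000842). It lay between -0.86 and -0.54 under all alternative settings and remained called in each. The level of Bcl11b was far above that of sensory receptor genes, which lymphocytes do not use and whose upper quartile was 4.07 on naive, 3.35 on effector and 3.71 on neonatal arrays.

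BCL11B is also a factor of T cells, and T cell markers were read beside it. Of 11 T cell markers, 2 were lower and 1 was higher in effector cells. Cd3g, a chain of the CD3 complex, fell by 0.58 ± 0.14 and Cd8b1 fell by 0.56 ± 0.18, while Trat1, which encodes a T cell receptor adaptor, rose by 0.90 ± 0.25. The mean of the 11 markers ranged over the arrays from 5.14 to 5.29 in naive and from 4.95 to 5.17 in effector adults, so the ranges overlapped. Cd8b1 lost its call after centring (-0.42), after further quantile normalization (-0.38), or without effector female array 2 (-0.51), effector male array 2 (-0.47), naive female array 2 (-0.42) or naive male array 2 (-0.50). Markers of other cells moved in this comparison as well. The mast cell protease gene Cpa3 fell by 0.90 ± 0.16 and the endothelial junction gene Cldn5 by 1.06 ± 0.18, whereas the B cell receptor gene Cd79b rose by 1.00 ± 0.24 and the macrophage gene Cd68 by 0.63 ± 0.17, and these 4 calls held under all settings run. Cpa3, Cldn5 and Cd79b were each the only called gene of their list, of 3, 5 and 2 tested. The medians of those lists were -0.18, -0.42 and 0.30. Of 5 tested macrophage and dendritic cell markers 1 was higher and 1 lower, with a median of -0.09. Adgre1, a macrophage gene, and Klrb1c, an NK cell gene, were lower, and each lost the call under at least 1 setting. Of 10 tested ILC2 markers 4 were higher and 1 was lower, with a median of 0.16. Arg1, the arginase gene, was higher by 0.59 ± 0.11. Il13 and Il5 were higher and Il7r was lower, with values given below. The proliferation genes Mki67 (4.87 ± 0.22), Ccnb2 (4.57 ± 0.17) and Top2a (4.43 ± 0.15) were all higher. The part of any of these markers in the fall of Bcl11b was not tested.

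Gfi1 encodes a zinc finger repressor that supports GATA3 in ILC2s and holds back genes of other innate lymphoid cells. Its levels were 5.84, 5.49 and 5.60 in naive females and 5.28, 5.47 and 4.93 in naive males. They were 5.89, 6.07 and 6.35 in effector females and 5.58, 5.70 and 5.72 in effector males. The 3 effector female arrays exceeded all 6 naive arrays, whereas the effector males overlapped with naive females. Gfi1 was higher in effector adults by 0.45 ± 0.14 (SE, n = 6 and 6; 1.37-fold; adjusted p = 0.0231). The call ended without effector female array 3 (0.39, adjusted p = 0.0653), effector male array 3 (0.44, 0.0505), naive female array 2 (0.41, 0.0556) or naive male array 3 (0.38, 0.0541). Gfi1 is dim on these arrays: 5.27% of sensory receptor features lay at or above its mean level in naive cells, 0.641% in effector cells and 1.07% in neonates.

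Gata3, Rora and Id2 did not pass the test between effector and naive adults. Gata3 ranged from 8.48 to 9.15 with a median of 8.81 in naive cells and from 8.50 to 8.97 with a median of 8.72 in effector cells. The ranges overlapped almost fully, and the difference was -0.11 ± 0.12, with a 95% interval from -0.36 to 0.15 (adjusted p = 0.51). A second feature of Gata3 differed by -0.08, while a feature annotated with Gata3 and other symbols, 3 in all, differed by 0.47 and cannot be assigned to 1 gene.

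Rora encodes the nuclear receptor RORα. Its levels ran from 6.67 to 7.18 with a median of 7.05 in naive adults and from 6.85 to 7.18 with a median of 6.99 in effector adults, so one range lay inside the other. The difference was 0.00 ± 0.13, with an interval from -0.26 to 0.27 (adjusted p = 0.994).

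Id2 showed a small and very regular difference. It ranged from 9.55 to 9.80 with a median of 9.62 in naive cells and from 9.39 to 9.48 with a median of 9.41 in effector cells, so that all 6 effector arrays were below all 6 naive arrays. Of all genes tested, 4.93% were lower without overlap in this comparison. The difference of -0.21 ± 0.14 for Id2 missed the threshold in the fit that shares its spread over all groups (adjusted p = 0.247). The neonatal arrays enter that spread, with an SD of 0.47 for Id2, against 0.09 over the naive and 0.03 over the effector arrays. With only the adult arrays fitted, the adjusted p was 0.0748. After further quantile normalization the difference was -0.36 and passed (adjusted p = 0.0344). Over all settings run, the difference of Id2 ranged from -0.36 to -0.07, with an adjusted p of up to 0.743.

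Tox encodes a high mobility group protein needed for innate lymphoid progenitors. It ran from 7.29 to 7.84 with a median of 7.53 in naive and from 7.37 to 8.04 with a median of 7.94 in effector adults, and 4 of 6 effector arrays were above all naive arrays. The difference was 0.30 ± 0.14 (adjusted p = 0.107). It passed after centring (0.44, adjusted p = 0.0212) and without effector female array 2 (0.39, adjusted p = 0.0365). Over all settings run, the difference of Tox ranged from 0.10 to 0.44, with an adjusted p of up to 0.634. Ets1 spanned 7.77 to 8.59 in naive and 8.06 to 8.37 in effector cells and differed by -0.06 ± 0.14 (adjusted p = 0.776). Zbtb16 spanned 4.72 to 5.90 in naive and 4.32 to 5.39 in effector cells and differed by -0.29 ± 0.25 (adjusted p = 0.384). Both genes overlapped between the conditions.

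**Figure D2:**
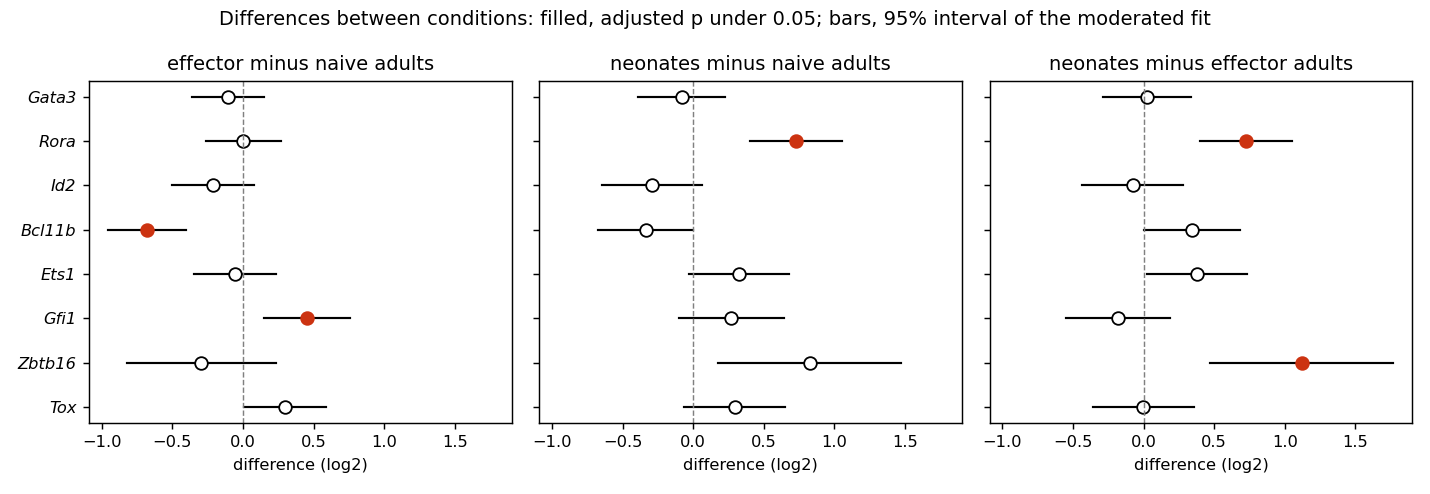
Difference in log2 level (x axis) of each factor (y axis) in the 3 comparisons of conditions, with the 95% interval of the moderated fit as a bar and filled points for an adjusted p under 0.05. The filled points are Bcl11b (-0.68) and Gfi1 (0.45) for effector minus naive adults, Rora (0.73) for neonates minus naive adults, and Rora (0.73) and Zbtb16 (1.12) for neonates minus effector adults.

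In neonates 1 of 8 factors was higher than in naive adults and none was lower, where 10.2% of all genes tested were called and 6.04% were called as higher. Against effector adults 2 of 8 were higher and none was lower, where 20.6% of all genes were called and 5.93% as higher. With 8 factors these counts rest on 1 and 2 genes and are read no further, and the comparisons share the neonatal arrays. Centring moved the median of all genes from -0.03 to -0.14 against effector adults, and the higher share of the calls from 28.8% to 16.4%. The medians of the 8 factors were 0.28 and 0.18, against 0.02 and -0.03 for all genes tested.

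Rora was higher in neonates than in adults of either condition. The neonatal arrays were at 8.02, 7.71 and 7.46, above every adult array, of which the highest was at 7.18 in either condition. In each comparison with adults, all neonatal arrays were higher, which 6.88% of genes showed against naive and 7.92% against effector adults. Rora exceeded naive adults by 0.73 ± 0.15 (SE, n = 3 neonatal and 6 naive arrays; 1.66-fold; adjusted p = 0.00731). Against effector adults the difference was again 0.73 ± 0.15 (n = 3 and 6; adjusted p = 0.00413). Taken by the sex of the adults, the neonates were 0.67 above naive females, 0.79 above naive males, 0.70 above effector females and 0.75 above effector males, all called. The call against naive adults ended when only the arrays compared were fitted (0.73, adjusted p = 0.0529), and without the 3 arrays that correlated least with the others (0.62, adjusted p = 0.0638). Against effector adults it was kept under all settings, with an adjusted p of at most 0.0266.

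Zbtb16 was the most variable factor. Its neonatal levels were 6.64, 6.33 and 5.34, so that arrays 1 and 2 were above all adult arrays while array 3 lay within the range of both adult conditions. The difference from effector adults was 1.12 ± 0.31 (SE, n = 3 and 6; 2.17-fold; adjusted p = 0.0179). The call ended without neonatal array 1 (0.85, adjusted p = 0.0988), without neonatal array 2 (1.01, adjusted p = 0.0828), without the 3 least correlated arrays (1.01, adjusted p = 0.0839), with array weights (1.10, adjusted p = 0.0614) and against effector females alone (0.97, adjusted p = 0.0871). Against naive adults the difference was 0.82 ± 0.31 and missed the threshold (adjusted p = 0.102). It passed without neonatal array 3, the lowest of the 3 (1.21, adjusted p = 0.0217), and after further quantile normalization (0.97, adjusted p = 0.0488). Over all settings run, this difference ranged from 0.51 to 1.21, with an adjusted p of up to 0.496. Zbtb16 is dim on these arrays: 6.55% of sensory receptor features lay at or above its mean level in naive cells, 2.78% in effector cells and 0.356% in neonates.

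The other 6 factors passed in neither comparison of neonates. Ets1, at 8.60, 8.55 and 8.47, was above all effector arrays and overlapped with naive ones, and it differed by 0.38 ± 0.17 from effector adults (adjusted p = 0.121) and by 0.32 ± 0.17 from naive adults (adjusted p = 0.246). The first of these passed after further quantile normalization (0.52, adjusted p = 0.0488). Over all settings run, it ranged from 0.27 to 0.52, with an adjusted p of up to 0.283. A feature annotated with Ets1 and another symbol, 2 in all, differed by 0.02 from effector and by -0.09 from naive adults. It cannot be assigned to 1 gene. All neonatal arrays above all effector arrays was a separation that 7.92% of all genes showed, and Bcl11b showed it too. Bcl11b in neonates was at 8.76, 8.79 and 9.28, between the adult conditions. It was above all effector arrays, with a difference of 0.34 ± 0.16 (adjusted p = 0.139), and on 2 of 3 arrays below all naive arrays, with a difference of -0.34 ± 0.16 (adjusted p = 0.197).

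Gata3 in neonates, at 8.77, 8.67 and 8.79, lay within the range of both adult conditions. The differences were -0.08 ± 0.15 from naive (interval -0.39 to 0.23; adjusted p = 0.773) and 0.03 ± 0.15 from effector adults (interval -0.29 to 0.34; adjusted p = 0.923). Id2 was at 9.51, 8.81 and 9.71, with neonatal array 2 far below every other array. It differed by -0.29 ± 0.17 from naive and by -0.08 ± 0.17 from effector adults (adjusted p = 0.296 and 0.777). Tox was at 7.93, 7.76 and 7.86, and differed by 0.29 ± 0.17 and 0.00 ± 0.17. Gfi1 was at 6.07, 5.63 and 5.41, and differed by 0.27 ± 0.17 and -0.18 ± 0.17. For neither gene did the neonates separate from the adults.

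**Figure D3:**
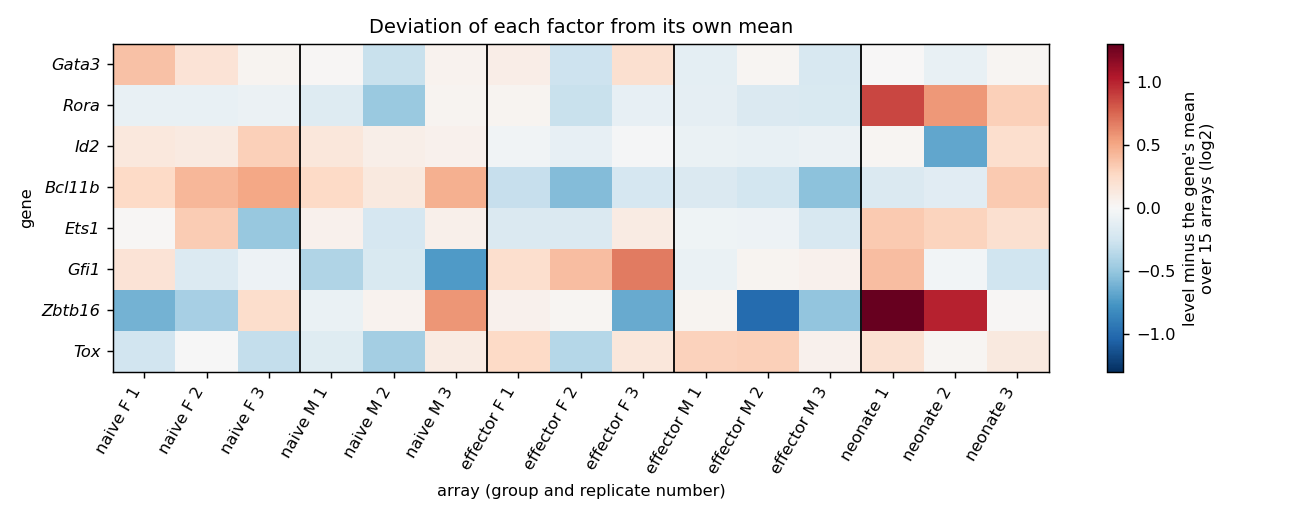
Level of each factor (rows) on each array (columns, grouped by condition and sex, with the replicate number) minus the factor's own mean over the 15 arrays, as colour on a log2 scale. Zbtb16 on neonatal arrays 1 and 2 and Rora on all 3 neonatal arrays are above their means, Bcl11b is below its mean on all 6 effector arrays, and Id2 is lowest on neonatal array 2.

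Markers of other cells also differed on the neonatal arrays. The mean of the 11 T cell markers was 5.36 to 5.66 over the neonatal arrays, above all adult arrays. Against naive adults 2 of the 11 were higher, Cd3e by 1.21 ± 0.25 and Cd28 by 0.81 ± 0.22, and against effector adults 3 were higher, Cd3e by 1.40 ± 0.25, Cd28 by 0.90 ± 0.22 and Cd3g by 0.72 ± 0.17. Against naive adults, Cd28 was no longer called without naive female array 1 (0.81) or 2 (0.80), naive male array 1 (0.76) or 2 (0.78) or neonatal array 1 (0.45), with array weights or with only the arrays compared. Against effector adults it was lost without neonatal array 1 (0.53). Above the background level were 11 of the 11 T cell markers in neonates, 11 in effector and 10 in naive adults. Rora, Zbtb16 and Ets1 are expressed in some T cells too, and the part of T cells in the neonatal values was not tested.

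Mast cell and basophil markers, 4 genes, had an array mean of 5.59 to 6.25 in neonates, 4.86 to 5.08 in naive and 4.55 to 5.61 in effector adults, with Cpa3, a mast cell protease, higher by 2.43 ± 0.20 and 3.33 ± 0.20. Sftpc, the surfactant protein C gene of lung epithelium, was higher by 1.98 ± 0.46 and 2.67 ± 0.46. Of the 5 markers of endothelium and epithelium 1 was called against naive adults and 2 against effector adults. The medians of these 5 were 0.03 and 0.08. Against naive adults, the call of Sftpc ended without neonatal array 1 (1.72), without the 3 least correlated arrays (2.00), with array weights and with only the arrays compared (1.98). The mean of 3 proliferation genes was 4.54 to 5.34 in naive adults, 9.34 to 9.87 in effector adults and 8.15 to 8.67 in neonates. Against naive adults Mki67 was higher by 3.96 ± 0.27, Top2a by 3.13 ± 0.19 and Ccnb2 by 2.97 ± 0.21, and against effector adults Top2a and Ccnb2 (-1.60 ± 0.21) were lower. Mki67 against effector adults, Mcpt8 and Cd68 (higher than in naive adults) and Cldn5, Adgre1 and Pax5 (higher than in effector adults) were called and each lost the call under at least 1 setting. These differences go along with the neonatal levels of Rora and Zbtb16, and their part in those levels was not tested.

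The ILC2 markers were bright as a list in each condition. Of 12 ILC2 markers, 10 had a feature, all above the background level in each condition, with array means of 9.27 to 9.56 in naive adults, 9.70 to 10.10 in effector adults and 9.50 to 9.97 in neonates. In the same order of conditions, array means were 3.96 to 4.44, 3.93 to 4.29 and 3.98 to 4.34 for NK cell and ILC1 markers and 3.07 to 3.75, 3.16 to 3.92 and 3.54 to 3.77 for ILC3 markers. They were 3.79 to 4.22, 3.93 to 4.02 and 4.02 to 4.45 for B cell markers and 4.17 to 4.92, 4.17 to 4.37 and 4.16 to 4.63 for markers of macrophages and dendritic cells. For each of these 4 lists the ranges of naive adults and neonates overlap. Above the background level of their condition were 4, 6 and 6 of the 7 NK cell and ILC1 markers with a feature, 1, 3 and 2 of 4 ILC3 markers, 2, 3 and 2 of 5 B cell markers and 5, 6 and 5 of 6 macrophage and dendritic cell markers. Markers of endothelium and epithelium had means of 4.83 to 6.23, 5.01 to 5.22 and 5.61 to 5.82. Of the T cell and mast cell lists, whose array means are given above, single genes were bright. In the same order of conditions, Cd3g had means of 10.22, 9.65 and 10.37 and Cpa3 of 8.01, 7.10 and 10.43. Dimmer were Cd3e (6.18, 5.99 and 7.39), Cd3d (4.88, 4.64 and 5.05), Cd4 (4.45, 4.22 and 4.38) and Cd8a (4.02, 3.89 and 4.11).

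Separated by sex, the response to IL-33 was called for Bcl11b in females and in males. In females 14% and in males 24.9% of all genes tested were called. Bcl11b was lower in effector cells by 0.76 ± 0.18 in females (a difference of -0.76; adjusted p = 0.0112) and by 0.60 ± 0.18 in males (-0.60; adjusted p = 0.026; SE, n = 3 arrays per group). The female minus male difference of these responses was -0.16 ± 0.26 (adjusted p = 0.984). The call in females ended without effector female array 2 (-0.66, adjusted p = 0.0639). In males it ended after centring (-0.44, adjusted p = 0.0956), without the 3 least correlated arrays (-0.78), and without naive male array 1 (-0.61) or 3 (-0.51) or effector male array 2 (-0.64) or 3 (-0.49).

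The response of Gfi1 was 0.46 ± 0.20 in females and 0.44 ± 0.20 in males, and neither passed on its own (adjusted p = 0.153 and 0.123). The male response passed after centring (0.60, adjusted p = 0.0362). Its level was higher in females of each condition, by 0.42 ± 0.20 in naive and 0.43 ± 0.20 in effector cells, with no overlap between the sexes in either. Of all genes tested, 10.1% were higher in females without overlap in naive cells and 6.02% in effector cells. Neither difference passed (adjusted p = 0.51 and 1). Over all genes, 0.209% were called between naive females and males and 0.0308% between effector females and males.

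For Zbtb16 the response was 0.08 ± 0.35 in females and -0.67 ± 0.35 in males, neither of which passed. Their difference was 0.75 ± 0.50 and did not pass (adjusted p = 0.974). No factor was called in the difference of responses or between the sexes. In limma's test of that difference 0% of all genes were called, or 0 of 16257, with 866 at an unadjusted p under 0.05.

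The factors also differed in how tightly replicates held together. The SD pooled over the 5 groups was lowest for Gata3, at 0.17, which is at percentile 10.4 of all genes tested, and highest for Zbtb16, at 0.49, at percentile 92.0. Rora (0.19), Bcl11b (0.20), Id2 (0.22), Ets1 (0.22), Tox (0.22) and Gfi1 (0.24) lay between them. A difference of a given size was therefore measured less precisely for Zbtb16 than for the other factors.

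For each factor called in at least 1 comparison, the 2 genes with the most similar pattern over the 15 arrays were found among 14631 genes, by the root mean square distance after each gene's own mean was subtracted. Closest to Rora was Erbin, which encodes a scaffold protein, at a distance of 0.0893 log2 units, followed by the cell cycle inhibitor gene Cdkn1a at 0.112. The values of Rora itself scatter about their mean by 0.331. Closest to Bcl11b, with a scatter of 0.347, were Atf7ip, which encodes a partner of a histone methyltransferase, at 0.147 and the zinc finger gene Vezf1 at 0.166. For Gfi1, with a scatter of 0.339, they were the membrane raft gene Flot2 at 0.196 and Bcl2a1a at 0.209, whose signal may be shared with near-identical gene copies. For Zbtb16, with a scatter of 0.600, the closest were Impact at 0.343 and the demethylase family gene Jmjd1c at 0.344. Likeness here means only that the values run alike on these arrays.

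**Figure D4:**
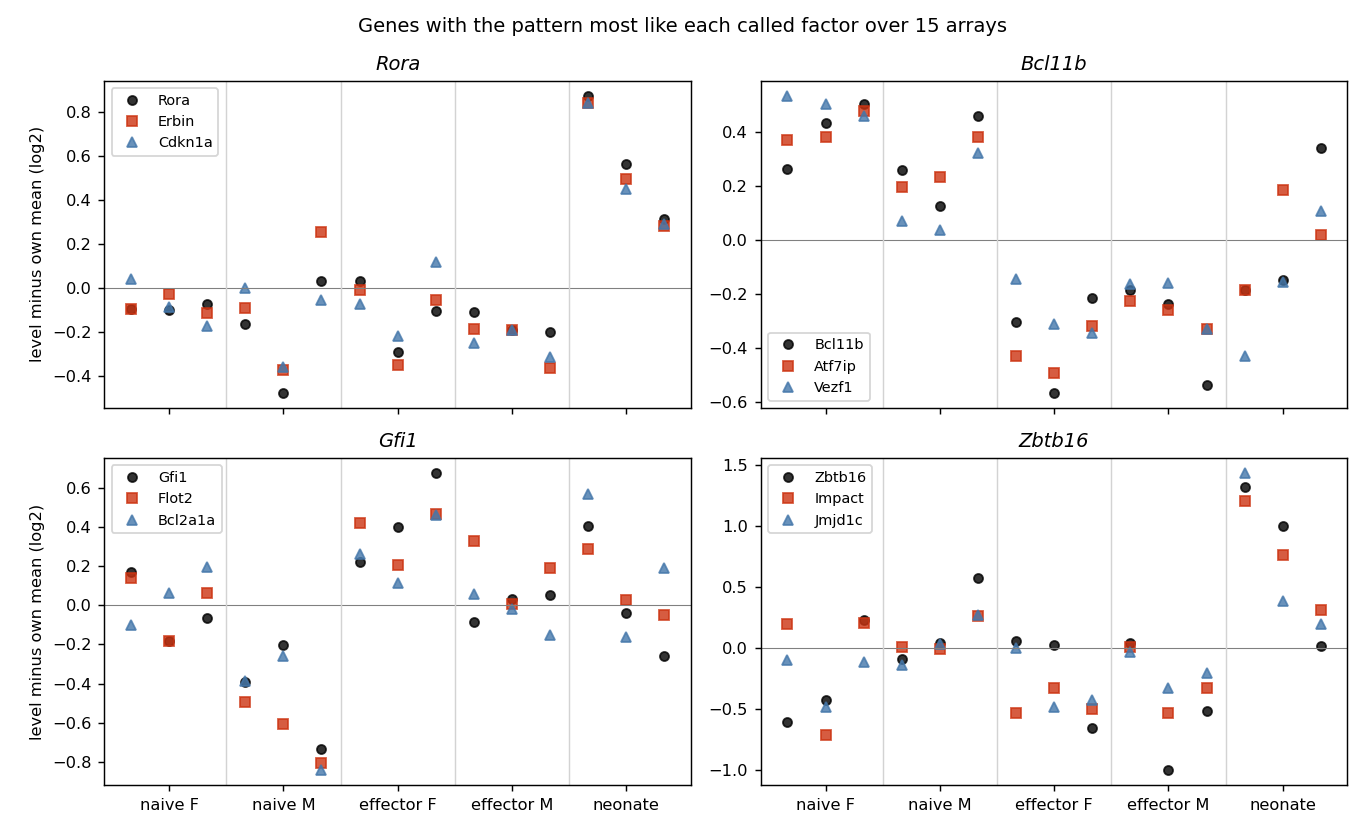
Log2 level minus the gene's own mean (y axis) on each array by group (x axis) for the 4 called factors (circles) and the 2 genes most like each (squares and triangles). Erbin and Cdkn1a share with Rora the order of neonatal arrays 1, 2 and 3, with replicate 1 highest, and Atf7ip and Vezf1 share with Bcl11b low values on the effector arrays.

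Relatives of the factors within their gene families included larger differences. Of 28 relatives 24 were tested, and in effector adults 5 were higher and 3 lower than in naive adults, a share near the 34.6% called over all genes (23.7% higher, 10.9% lower). Their median was -0.08, against 0.03 for all genes. Zbtb32, a repressor of activated lymphocytes related to PLZF, rose by 2.27 ± 0.15, while another relative, Zbtb20, fell by 1.53 ± 0.19. The ETS family repressor gene Etv6 rose by 1.29 ± 0.18, and Tcf7l1, a relative of the unmeasured Tcf7, fell by 1.14 ± 0.13. In neonates 2 were higher and 2 lower than in effector adults, where 20.6% of all genes were called. Ets2, a close relative of Ets1, was higher by 1.19 ± 0.22 and Tcf7l1 by 1.13 ± 0.16, while Zbtb32 (-1.99 ± 0.19) and Etv6 (-1.15 ± 0.22) were lower. Against naive adults 2 were higher and 1 lower (Ets2, Gabpa and Zbtb20), where 10.2% of all genes were called, and this count ranged from 0 to 4 over the settings run.

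Of 19 partners and opponents of the factors 16 were tested, 8 of them higher and 3 lower in effector than in naive adults (all genes, 23.7% higher and 10.9% lower), with a median of 0.46, against 0.03 for all genes. Nr1d1 and Nr1d2, which encode the REV-ERB receptors that compete with RORα for the same sites, fell by 1.87 ± 0.20 and 1.00 ± 0.24. The histone deacetylase gene Hdac1 rose by 1.32 ± 0.19, and the corepressor gene Tle4 fell by 1.01 ± 0.19. Against effector adults, neonates had 3 of the 16 higher and 2 lower (all genes, 20.6% called). Nr1d1 was higher there by 1.55 ± 0.25 and Tcf3, which encodes the E proteins E12 and E47, was lower (-0.82 ± 0.17). Nr1d2 and Tle4 were higher as well, each lost under at least 1 setting, and the count of called genes ranged from 2 to 7. Against naive adults only the demethylase gene Kdm1a was higher (0.79 ± 0.18; all genes, 10.2% called), with 0 to 4 called over the settings. Of 4 genes that E proteins drive, only Ptcra was tested, and it was called in none of the 3 comparisons (-0.23 ± 0.14 in effector against naive adults).

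Of 18 other transcription factors of innate lymphoid cells 15 were tested, with 5 higher and 4 lower in effector than in naive adults (all genes, 23.7% and 10.9%) and a median of 0.10, against 0.03 for all genes. Myb, a factor of proliferating progenitors, rose by 3.92 ± 0.22, or by 1.95 as the mean of its features. Ahr, the aryl hydrocarbon receptor gene, rose by 1.35 ± 0.15. Bach2, a repressor of effector differentiation, fell by 1.77 ± 0.24 and Klf2, a factor of quiescent lymphocytes, fell by 1.11 ± 0.22. In neonates 6 were higher and 2 lower than in naive adults (all genes, 10.2% called). Ahr was higher by 1.44 ± 0.19 and Nfil3, which is needed early in the lineage, by 1.13 ± 0.18. Myb (higher) and Klf2 (lower) were lost under some settings, and the count of called genes fell to as few as 2 when only the arrays compared were fitted. Against effector adults (all genes, 20.6% called) 2 were higher, among them Ikzf2, an Ikaros family gene, at 0.86 ± 0.18, and 1 was lower, Myb at -2.88 ± 0.27 (-1.21 as the mean of its features).

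Of 8 genes that depend on GATA3 in ILC2s 7 were tested, 4 higher and 1 lower in effector than in naive adults (all genes, 23.7% and 10.9%), with a median of 0.45, against 0.03 for all genes. Il13 rose by 3.07 ± 0.14 and Il5 by 1.46 ± 0.21, and Il7r, the gene of the IL-7 receptor, fell by 1.11 ± 0.14, while Gata3 itself did not pass. Il4 rose by 0.54 ± 0.13, a call that ended after further quantile normalization (0.39, adjusted p = 0.0534). In neonates 3 were higher and 1 lower than in naive adults (all genes, 10.2% called), with Il13 higher by 2.36 ± 0.17, Il5 by 1.95 ± 0.26 and Il4 by 1.04 ± 0.16. Against effector adults 2 were higher and 2 lower (all genes, 20.6% called). The costimulatory receptor gene Icos was higher there by 0.85 ± 0.21, or by 0.49 without neonatal array 1, and the other 3 called genes (Il4, Il13 and Il2ra) were each lost under at least 1 setting.

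Of 7 genes of innate lymphoid progenitors 3 were higher and 2 lower in effector than in naive adults (all genes, 23.7% and 10.9%), with a median of 0.04, against 0.03 for all genes. Il18r1 rose by 1.95 ± 0.21 and Pdcd1, the PD-1 gene, by 1.60 ± 0.19, while the stem cell factor receptor gene Kit fell by 0.67 ± 0.13 and the chemokine receptor gene Cxcr6 fell by 0.63 ± 0.12. In neonates 2 of the 7 were higher and 2 lower than in effector adults (all genes, 20.6% called). Kit was higher there by 0.87 ± 0.15 and Cxcr6 by 0.66 ± 0.15, whereas Pdcd1 was lower (-1.62 ± 0.23). Against naive adults only Il18r1 was called (all genes, 10.2% called), and neither Kit nor Cxcr6 was. The neonatal differences of Il18r1, lower than in effector and higher than in naive adults, were each lost under at least 1 setting.

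How many of these calls held under all settings differed between comparisons. Of the called genes named by rule from these lists and the marker lists, 29 of 33 between effector and naive adults, 18 of 30 between neonates and effector adults and 10 of 22 between neonates and naive adults remained called throughout.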

How the data were processed

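Levels are log2 values as deposited. Per the submitters' processing notes the authors made them in Affymetrix Expression Console by RMA, a method of background correction, quantile normalization and probe summary. No versions are given.

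Of 41345 features, 23521 had 1 gene symbol, 1814 several and 16010 none. Gene identifiers of 23328 features matched a RefSeq gene table, which changed 0 symbols. Features with 1 symbol were kept when above their array's percentile 40 in at least 3 arrays, and of several features of a gene the one with the highest mean was used, which left 16257 genes. Group means of all 15 arrays were estimated in limma 3.58.1 under R 4.3.3 (10 residual and 5.05 prior degrees of freedom), and adult conditions gave each sex equal weight. All tests are two-sided, with Benjamini-Hochberg adjustment over all genes and a threshold of 0.05. Fits were tested on simulated data.

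The members and the lists of related and marker genes were chosen with earlier results of these data known. All members are named in each comparison of conditions. From each list the text names up to 4 called genes with the largest difference and, of the related genes, up to 2 where none was called, and for called members the 2 genes of most similar pattern. List genes that lost the call under some setting are mostly named without values. The background level is the upper quartile of the group means of 1405 olfactory and vomeronasal receptor features, taken before the filter.

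Median levels per array were 4.44 to 4.64. They were 4.44 to 4.50 on effector, 4.56 to 4.64 on naive and 4.50 to 4.63 on neonatal arrays. The median of each effector array was thus below that of each naive array. The arrays of a group correlated at a mean of 0.909 to 0.972, least in naive males and neonates. Alternatives changed the filter, the scaling, the prior, array weights, a replicate block, the arrays fitted and the summary of features, and left out each array in turn. Figures were drawn with matplotlib 3.10.9.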

Additional observations from a re-analysis of the deposited data

Results flagged for a closer look

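Among the 16 sets of 6 adult arrays tested (8 genes in naive and in effector adults), 2 held an array whose gap to its nearest neighbour passed Dixon's critical value of 0.625, a rule that chance meets in about 1 of 20 sets. Id2 in naive female replicate 3 was at 9.80, above the other 5 naive arrays (ratio 0.634). Tox in effector female replicate 2 was at 7.37, below the other 5 effector arrays (ratio 0.626).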

How the results depend on the processing

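Settings that end or add a call of a factor in the 3 comparisons of conditions are given with that factor. By sex they are given for Bcl11b, Gfi1 and Zbtb16 only, and changes for the other factors are counted here but not named. Without each array in turn, the number of factors called ranged from 1 to 3 for effector against naive adults, 0 to 1 in females, 0 to 1 in males, 1 to 2 for neonates against naive adults and 1 to 2 against effector adults. In males it was 2 after centring and 0 without the 3 least correlated arrays, an alternative chosen after seeing the data (naive male arrays 1 and 2 and neonatal array 2). For neonates and naive adults it was 2 after quantile normalization and 0 with only the arrays compared or without the 3 arrays. For neonates and effector adults it was 1 with array weights and 1 without the 3 arrays.

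Counts over all genes moved for neonates against naive adults to 705 with array weights, 676 with only the arrays compared and 1031 to 1856 without single arrays (lowest without neonatal array 1), from 1652. Against effector adults they moved from 3346 to 2068 with array weights and to 2061 to 3761 without single arrays (lowest without neonatal array 2). The response in males moved from 4048 to 2239 without the 3 arrays and to 2607 to 4403 without single arrays, and that in females from 2276 to 1358 to 2515. Naive females against males moved from 34 to 16 to 99. The difference of responses gave 1 gene after centring, 1 with the replicate block, 1 without the 3 arrays and 0 to 8 without single arrays (8 without naive male array 3).

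Only differences that were not called changed sign. After centring, Ets1 was at 0.082 and Gata3 at 0.031 for effector minus naive adults, and Gata3 at -0.081 for neonates minus effector adults. After quantile normalization, Rora was at -0.19 for effector minus naive adults, and Id2 at 0.0060 and Tox at 0.16 for neonates minus effector adults. Without the 3 arrays, Rora was at -0.12, Id2 at 0.19 and Tox at 0.042 in those comparisons, and the difference of responses of Bcl11b was 0.017. Against adults of 1 sex, Gata3 was at -0.029 and Tox at 0.10 (effector females), Gata3 at 0.053 (naive males) and Gfi1 at 0.036 (effector males). Without single arrays, effector minus naive ran from -0.17 to 0.037 for Ets1 and from -0.067 to 0.060 for Rora, the female response of Zbtb16 from -0.088 to 0.33, and neonates minus effector adults from -0.044 to 0.075 for Gata3, -0.26 to 0.19 for Id2 and -0.10 to 0.059 for Tox. Apart from the values given with their construction, the cause was not tested.

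No pairing of the arrays by replicate number was seen, though groups of 3 arrays are too small to exclude it. Deviations of same-numbered arrays correlated at -0.11 to 0.13 over 30 pairs, with 1 pair over 0.1. With the replicate block 5511, 1533 and 3178 genes were called in the 3 comparisons of conditions, and no call of a factor changed.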
